A study of Mus musculus with 7 samples.

Results

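The genes described here are 9 genes of early lymphoid commitment: Dntt, Rag1, Rag2, Il7r, Flt3, Notch1, Ccr9, Cd7 and Satb1. They are 9 of the 19938 genes that the arrays measured, and each was read from the only probe set annotated to it alone. Part of the set was chosen by its measured values in the same comparison of genotypes that is described below, the log2 differences between Cebpa-deleted and control HSCs. The values of these 9 genes are therefore given as a description, without tests.

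HSCs were sorted from the bone marrow of adult female C57BL/6 mice, as lineage-negative cells that carried Sca1, cKit and CD150 and lacked CD48 (Lin-, Sca1+, cKit+, CD150+, CD48-). Control mice had both Cebpa alleles flanked by loxP sites (Cebpa flox/flox, written Cebpa fl/fl, 3 mice), and the other group carried the Mx1Cre transgene in addition (Cebpa flox/flox;Mx1Cre, written Cebpa Δ/Δ once induced, 4 mice). All 7 mice received pIpC, an RNA mimic that induces interferon and is abbreviated pIC in the labels, and were killed at day 18. The labels speak of triplicates for each genotype, whereas 3 and 4 arrays were analysed. Mx1Cre responds to interferon in many cell types and not in HSCs alone, so recombination was not restricted to the sorted cells. The control mice lacked Cre, so effects of the transgene and of the deletion cannot be told apart.

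Lymphoid priming is the low-level transcription of lymphoid genes in stem and multipotent progenitor cells before any lymphoid cell has formed. FLT3 and the IL-7 receptor receive the cytokine signals of this stage, Notch1 directs progenitors towards the T lineage, and CCR9 guides them to the thymus. TdT, RAG1 and RAG2 act later on the antigen receptor genes, while SATB1 organises the chromatin of lymphoid loci. C/EBPα, the product of Cebpa, drives granulocyte and monocyte differentiation and is required for the step that leads to granulocyte-monocyte progenitors.

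The regions upstream of Dntt, Il7r and Flt3 are shown first because these are the promoters, among those with a reference entry, of genes with higher intensities after Cebpa deletion. Each is the 250 bases before the start of the gene on its own strand, 5′ to 3′, from RefSeq on GRCm38.p6. Capitals mark matches on either strand to the C/EBP pattern TTNNNCAA or the E-box CANNTG, the site family of the E2A and HEB factors. Dntt lies on chr19:41029025-41029274, plus strand, Il7r on chr15:9529877-9530126, minus strand, and Flt3 on chr5:147400490-147400739, minus strand.
Dntt: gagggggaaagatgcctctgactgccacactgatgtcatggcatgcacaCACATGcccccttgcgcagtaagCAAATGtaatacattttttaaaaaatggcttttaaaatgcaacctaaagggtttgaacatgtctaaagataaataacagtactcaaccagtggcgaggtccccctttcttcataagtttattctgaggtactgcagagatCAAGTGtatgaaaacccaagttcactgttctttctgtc
Il7r: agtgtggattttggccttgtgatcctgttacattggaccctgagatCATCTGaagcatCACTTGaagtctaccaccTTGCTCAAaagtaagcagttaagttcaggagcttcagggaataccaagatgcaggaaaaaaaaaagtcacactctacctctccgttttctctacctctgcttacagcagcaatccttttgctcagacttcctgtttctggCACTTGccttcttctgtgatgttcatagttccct
Flt3: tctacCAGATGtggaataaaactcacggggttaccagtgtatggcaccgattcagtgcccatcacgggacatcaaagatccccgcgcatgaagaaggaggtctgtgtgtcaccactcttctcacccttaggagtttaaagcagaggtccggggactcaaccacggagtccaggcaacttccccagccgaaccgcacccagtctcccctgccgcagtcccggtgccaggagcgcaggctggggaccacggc

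The Dntt window held 3 E-boxes, at 201, 178 and 38 bases before the start, and no match to the C/EBP pattern. In the Il7r window there were also 3 E-boxes, at 204, 192 and 34 bases, and 1 C/EBP match, TTGCTCAA, at 174 bases. Flt3 had 1 E-box at 245 bases and no C/EBP match. Among the 8 genes with an entry (Cd7 had none), E-boxes occurred in all but Notch1, and the C/EBP pattern occurred for Il7r, Rag2 and Satb1. Both patterns are common: of 32851 windows of the same length, 33.3% held the C/EBP pattern and 66.2% an E-box. The 8 genes had 12 windows in all, because Satb1 alone had more than 1. Counts of genes therefore cannot be set against these shares of windows. Matches to TGNGGT, used here as a loose RUNX pattern with any base at N, lay at 55 bases in Dntt and 61 bases in Flt3. The matched letters were TGAGGT in Dntt and ACCGCA in Flt3, while Rag1 held TGTGGT at 81 and 67 bases. Satb1 windows held ACCCCA at 48 bases and TGGGGT at 115 and 245 bases, the latter in overlapping windows. The other genes with an entry had no match. Of all windows, 40.1% held a match to this pattern. These matches describe the letters only. The arrays measured no binding. The study mapped C/EBPα binding by chromatin immunoprecipitation in Lin-, Sca1+, cKit+ cells, and those data were not used here.

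Of the 9 genes, 4 had higher intensities in Cebpa Δ/Δ HSCs at the study's thresholds, which ask for a change of more than 1.5-fold and an unadjusted p below 0.05, and 0 were lower. These were Dntt, Il7r, Cd7 and Flt3, and for each of them all 4 Cebpa Δ/Δ arrays lay above all 3 Cebpa fl/fl arrays. Among all genes, 1.57% were higher and 0.617% lower at these thresholds, while the deleted arrays all lay above the controls for 3.51% and all below for 2.46%. Because the genes were picked partly on this contrast, nothing is read from the difference between these shares. Rag1, Rag2 and Ccr9 were near background in both genotypes, and Dntt and Il7r in the controls only. The median difference of the 9 genes was 0.69 on the log2 scale, against 0.00 over all genes. Values below are log2 intensities, given for arrays 1 to 3 of Cebpa fl/fl and then 1 to 4 of Cebpa Δ/Δ, and the array background was 4.90 and 4.93 in the respective genotypes. It is the mean over arrays of the 95th percentile of 1203 odorant and related receptor genes that blood cells are taken not to express.

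**Figure D1:**
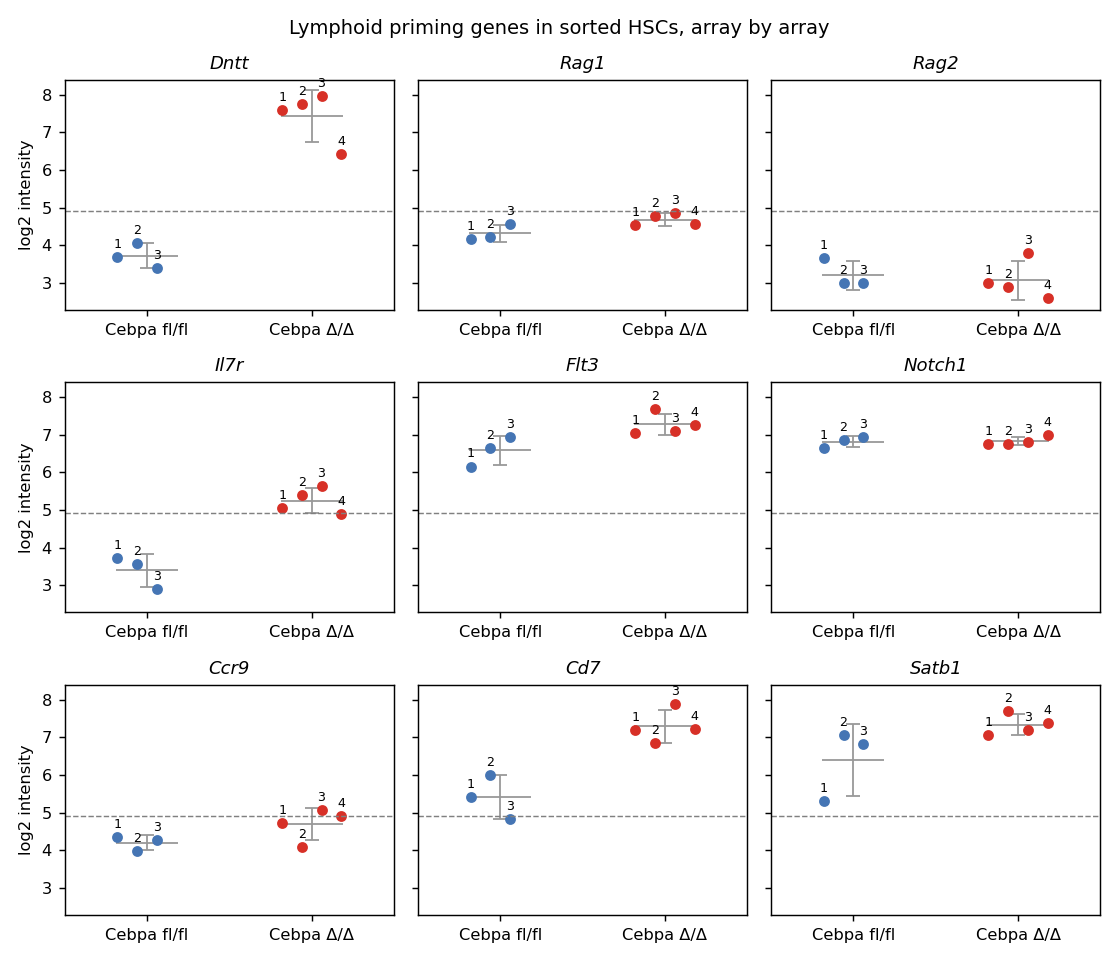
Each panel plots the log2 intensity of 1 gene on the vertical axis for the 3 Cebpa fl/fl arrays (blue) and the 4 Cebpa Δ/Δ arrays (red), numbered by replicate, with the group mean and SD in grey and the array background as a dashed line. Dntt and Il7r were below the background in the 3 control arrays, Cd7 and Flt3 were separated between genotypes, and Rag1 and Rag2 stayed below it in all 7 arrays.

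Dntt encodes terminal deoxynucleotidyl transferase (TdT), which adds nucleotides without a template at antigen receptor joints. Its log2 intensity was 3.70, 4.06 and 3.41 in Cebpa fl/fl HSCs and 7.60, 7.75, 7.95 and 6.44 in Cebpa Δ/Δ HSCs. All 3 control arrays were below the background and all 4 deleted arrays above it, and the lowest deleted array exceeded the highest control array by 2.37. On the linear scale this was 10.6 to 16.7 intensity units in controls and 86.6 to 247.9 in deleted HSCs. The means were 3.73 ± 0.33 (SD, n = 3) and 7.43 ± 0.68 (SD, n = 4). Since the control value could not be told from background, the change is given as at least 5.80-fold, and the fitted log2 difference was 3.71 (SE 0.38). Cebpa Δ/Δ array 4 was the lowest of its group, and without it the difference was 4.04.

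RAG1 and RAG2 together form the recombinase that cuts antigen receptor genes. Rag1 gave 4.16, 4.23 and 4.57 in Cebpa fl/fl and 4.53, 4.77, 4.87 and 4.57 in Cebpa Δ/Δ HSCs, and Rag2 gave 3.65, 2.99 and 2.99 against 2.99, 2.90, 3.81 and 2.61. Neither gene was above background in any array, so no fold is given for them, and the genotypes overlapped for both. In the RefSeq annotation the 2 genes are neighbours. The high Dntt intensity in Cebpa Δ/Δ HSCs was thus not accompanied by a Rag1 or Rag2 signal that these arrays could measure.

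Il7r encodes the IL-7 receptor alpha chain, which B and T progenitors need for survival and expansion. The arrays read 3.74, 3.56 and 2.91 in controls and 5.07, 5.39, 5.64 and 4.90 in deleted HSCs. No control array and 3 of 4 deleted arrays exceeded the background, so the higher values were themselves close to it. The genotypes did not overlap, with a gap of 1.16. Means were 3.40 ± 0.44 (SD, n = 3) and 5.25 ± 0.33 (SD, n = 4), which is at least 1.28-fold with the controls set to the background, and the fitted log2 difference was 1.85 (SE 0.26). With all low values raised to the background the difference was 0.37, below 1.5-fold.

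Flt3 encodes the receptor tyrosine kinase for FLT3 ligand, whose surface level separates multipotent and lymphoid-primed progenitors from HSCs. Its intensity was 6.16, 6.66 and 6.93 in Cebpa fl/fl HSCs and 7.05, 7.68, 7.09 and 7.26 in Cebpa Δ/Δ HSCs. All arrays were well above background, and the groups were separated by only 0.12, between control array 3 and deleted array 1. The mean was 6.58 ± 0.39 (SD, n = 3) in controls and 7.27 ± 0.29 (SD, n = 4) in deleted HSCs, a log2 difference of 0.69 (SE 0.23) or 1.61-fold. Flt3 lay just inside the thresholds. Its difference was under 1.5-fold without control array 1 (0.48), without deleted array 2 (0.55) and without control array 1 and deleted array 3 together (0.54).

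Notch1, the receptor that commits progenitors to the T lineage, showed 6.65, 6.86 and 6.94 against 6.77, 6.76, 6.81 and 6.98. These values lay above background in every array and overlapped throughout, with means of 6.82 ± 0.15 (SD, n = 3) and 6.83 ± 0.11 (SD, n = 4). The log2 difference was 0.01 (SE 0.09), and it ranged from -0.07 to 0.08 over 17 alternative settings. Ccr9, the receptor for the thymic chemokine CCL25, gave 4.36, 3.98 and 4.28 against 4.73, 4.08, 5.06 and 4.91. Only 1 of these 7 arrays, Cebpa Δ/Δ array 3, exceeded the background, and no fold is given.

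Cd7 encodes an immunoglobulin-superfamily surface protein of T, NK and early lymphoid cells. Control arrays read 5.42, 5.99 and 4.84, and deleted arrays 7.20, 6.84, 7.88 and 7.23. Control array 3 alone was below the background, and the lowest deleted array exceeded the highest control by 0.85. Means were 5.42 ± 0.58 (SD, n = 3) and 7.29 ± 0.43 (SD, n = 4), a log2 difference of 1.87 (SE 0.33) or 3.66-fold. Over 17 alternatives it stayed between 1.54 and 2.16.

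Satb1, whose product folds the chromatin of lymphoid loci, was just outside the thresholds. It gave 5.29, 7.06 and 6.81 in Cebpa fl/fl HSCs and 7.06, 7.71, 7.19 and 7.37 in Cebpa Δ/Δ HSCs. The lowest deleted array equalled the highest control array, and the spread of the controls came from array 1. The log2 difference was 0.95 (SE 0.43) between means of 6.39 ± 0.95 (SD, n = 3) and 7.33 ± 0.28 (SD, n = 4), and without control array 1 it was 0.40.

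**Figure D2:**
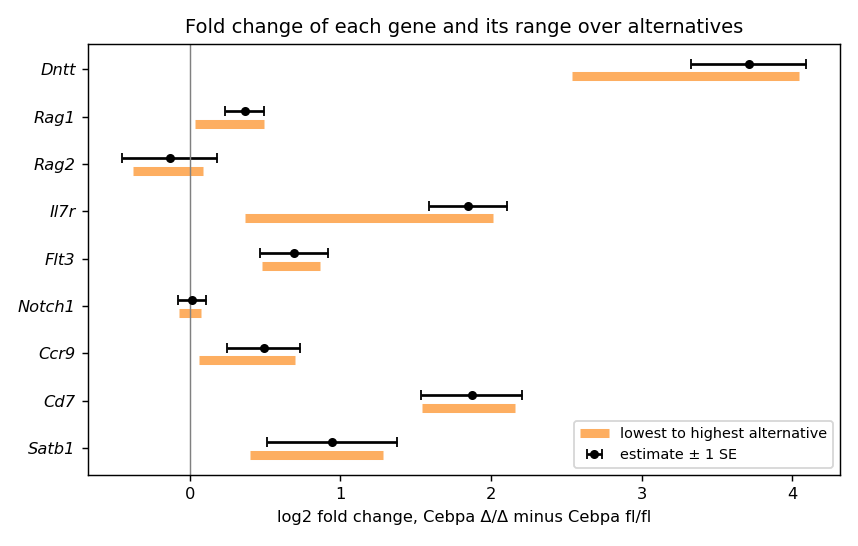
The horizontal axis is the log2 fold change, Cebpa Δ/Δ minus Cebpa fl/fl. Points with bars show the estimate ± 1 SE for each gene, and orange bars span the lowest to highest value over the alternative settings. Dntt stayed between 2.54 and 4.04 and Cd7 between 1.54 and 2.16, whereas Rag2 ran from -0.38 to 0.09 and Notch1 from -0.07 to 0.08.

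The members that differed did not all follow the same order of arrays. For Dntt and Il7r the deleted arrays ranked 3, 2, 1, 4 from high to low, and Cd7 was likewise highest in array 3. Flt3 and Satb1 were instead highest in deleted array 2 and lowest in deleted array 1. Among controls, array 3 was lowest for Dntt, Il7r and Cd7, and array 1 for Flt3, Satb1, Rag1 and Notch1. Control array 1 and deleted array 3 had the lowest mean correlations with the other arrays, 0.979 for each, against 0.985 for the highest array.

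**Figure D3:**
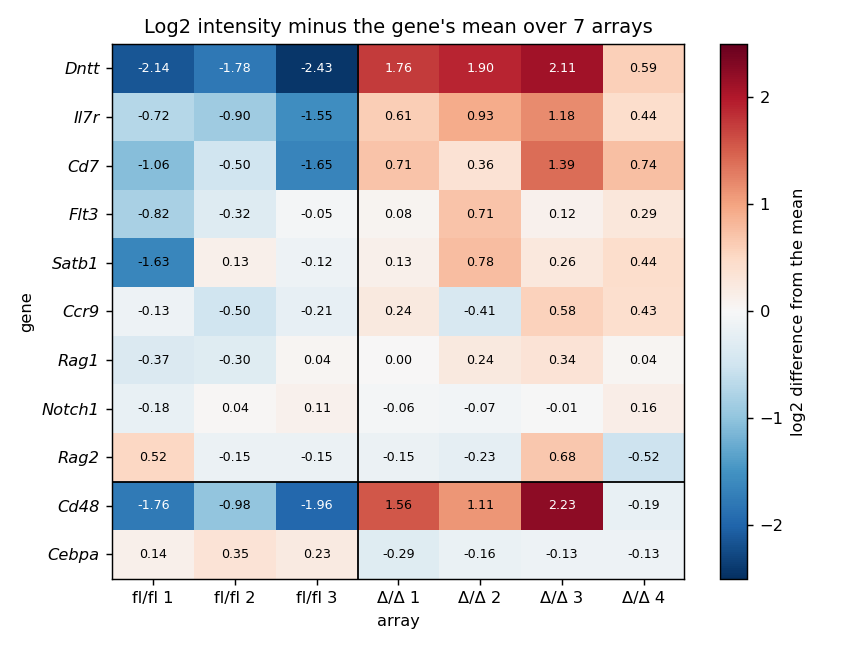
Colours and numbers give the log2 intensity of each gene (rows) in each array (columns) after its average across all 7 arrays was subtracted, with Cd48 and Cebpa below the horizontal line for comparison. Dntt, Il7r, Cd7 and Cd48 were darkest red in Cebpa Δ/Δ array 3 and darkest blue in control array 3, a pattern that Flt3 and Satb1 did not share.

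Cd48, whose protein the sort excluded, moved with these genes. Its log2 intensity was 4.82, 5.61 and 4.62 in controls and 8.15, 7.70, 8.82 and 6.40 in deleted HSCs, a difference of 2.75 (SE 0.58, limma adjusted p = 0.412), and it was highest in deleted array 3 and lowest in deleted array 4, as were Dntt and Il7r. Cebpa itself was 5.54, 5.75 and 5.63 in controls and lower in all 4 deleted arrays (-0.41, SE 0.07, limma adjusted p = 0.337). In bulk RNA from sorted cells, more cells of a kind that carries a transcript and more transcript per cell cannot be told apart. The part of Cd48-carrying cells in the values of Dntt, Il7r and Cd7 was not tested.

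By likeness of profile, measured as the root mean square difference over the 7 arrays after each gene was centred on its mean, the nearest genes to Dntt were Slc4a1 (0.50), Cpa3 (0.56), Cd48 (0.57), Rhag (0.70) and Atp1b2 (0.71). Slc4a1 and Rhag encode red cell membrane proteins and Cpa3 the carboxypeptidase of mast cells. Nearest to Il7r were DQ267102 (0.32), Cd7 itself (0.33), Ctss (0.34), Ifi206 (0.38) and Mfsd2b (0.39). Tent5c (0.20), Rian (0.25), Camsap2 (0.30), Mfsd2b (0.32) and Cst7 (0.33) lay nearest to Cd7. For Flt3 the nearest were Tuba1a and Ddah2 (0.13 each), Glul (0.15) and Nmt1 and Mospd1 (0.17 each). These genes were picked because their values resemble those of the 4 genes and are given without tests.

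The other genes of the same pathways were read from 8 lists set by function, though with earlier results of these data known. Of 199 measured genes of 212 listed, 6 were higher (3.02%) and 2 lower (1.01%) at the study's thresholds, with a median difference of -0.01 on the log2 scale. None passed the adjusted threshold in limma, as was the case for all 19938 genes, of which 1492 had an unadjusted p under 0.05, 18 of them among these 199. In 13 of the 199 all deleted arrays lay above all controls, and in 1 all lay below. Over all genes, 1.57% were higher and 0.617% lower at the thresholds, and 3.51% and 2.46% had all deleted arrays above or below all controls.

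The partners of Dntt in V(D)J recombination and end joining gave 0 higher and 0 lower of 16 measured genes (median 0.01). The smallest p values belonged to Hmgb2, a DNA-bending cofactor of the recombinase, with a difference of 0.38 (SE 0.14), and Atm, the kinase of DNA breaks, with -0.22 (SE 0.09). IL-7 receptor signalling gave 0 and 0 of 25 (median -0.03), with Socs3, a suppressor of cytokine signalling, at 0.61 (SE 0.27) and Il2rb, the beta chain of the IL-2 and IL-15 receptors, near background in both genotypes. FLT3 signalling gave 0 and 0 of 18 (median -0.15), with the phosphatase gene Inpp5d at -0.27 (SE 0.11) and the kinase gene Fyn at -0.49 (SE 0.22). The chromatin partners of SATB1 gave 0 and 0 of 16 (median -0.01), with the chromatin remodeller Smarca5 at 0.24 (SE 0.07) and the corepressor Ctbp1 at 0.25 (SE 0.10). None of these 8 genes passed both thresholds.

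In the Notch pathway 0 of 38 measured genes were higher and 2 were lower (median -0.02). Mfng, a glycosyltransferase that modifies Notch receptors, fell from 9.12 ± 0.10 to 8.46 ± 0.29 (-0.67, SE 0.16, limma adjusted p = 0.505), with all deleted arrays below all controls. Fbxw7, the ubiquitin ligase subunit that marks active Notch for degradation, fell from 8.12 ± 0.41 to 7.46 ± 0.27 (-0.65, SE 0.23, limma adjusted p = 0.663), with overlapping arrays. Mfng missed the thresholds without deleted array 3, and Fbxw7 missed them under 8 of the 17 alternatives.

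Lymphoid transcription factors gave 2 higher of 36 (median 0.01). Id2, an inhibitor of E proteins that innate lymphoid and NK cells require, rose from 5.47 ± 0.66 to 6.94 ± 0.62 (1.47, SE 0.43, limma adjusted p = 0.622). Spib, an ETS factor of plasmacytoid dendritic and B cells, rose from 4.35 ± 0.40 to 5.38 ± 0.43 (fitted difference 1.03, SE 0.28, limma adjusted p = 0.580). Its controls averaged below background, so the change is at least 1.40-fold, and the call was lost when low values were raised to the background. For Id2 and Spib alike, all 4 deleted arrays exceeded all 3 controls.

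Homing genes gave 2 higher of 18 (median 0.09). Itgal, the alpha chain of the integrin LFA-1, rose from 5.32 ± 0.21 to 6.07 ± 0.19 (0.75, SE 0.14, limma adjusted p = 0.358). Cxcl12, the chemokine of marrow stroma, rose from 6.10 ± 0.93 to 7.24 ± 0.24 (1.15, SE 0.41, limma adjusted p = 0.663), but control array 2 reached the range of the deleted arrays and the call was lost under 8 alternatives. Among genes of lymphoid-primed progenitors, 2 of 32 were higher (median 0.09). These were Cd53, a leukocyte tetraspanin, from 8.41 ± 0.56 to 9.68 ± 0.31 (1.27, SE 0.29, limma adjusted p = 0.480), and Il18r1, an IL-18 receptor chain, from 4.72 ± 0.72 to 5.76 ± 0.20 (fitted difference 1.04, SE 0.32, limma adjusted p = 0.644). The Il18r1 controls averaged below background, so its change is at least 1.59-fold, and its call was lost without control array 2.

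**Figure D4:**
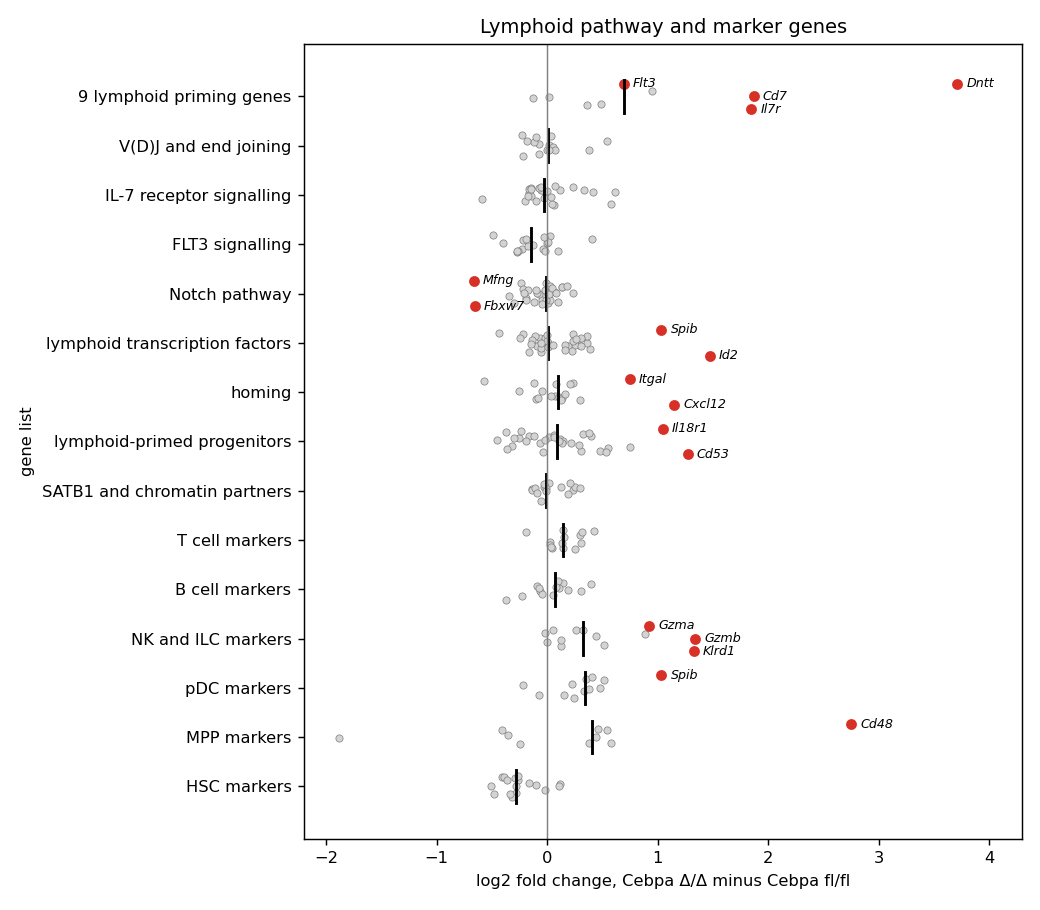
Each point is 1 gene placed by its log2 fold change, Cebpa Δ/Δ minus Cebpa fl/fl, in rows by gene list, with black bars at the list medians. Red points passed the study's thresholds: 4 of the 9 lymphoid priming genes, of which Dntt lay farthest to the right. In the other rows the most was 3 of 13, for NK and innate lymphoid markers. Over all genes, 1.57% were higher and 0.617% lower. The 9 genes were picked partly on this contrast, so nothing is read from their share against the other rows.

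Markers of mature lymphoid cells were read beside these results. For T cells, 0 of 14 measured markers passed in either direction, 9 were near background in both genotypes, among them Cd3d, Cd3g, Cd4 and Cd8a, and their summed intensity was 367.2 to 405.3 in controls and 400.7 to 437.0 in deleted HSCs. For B cells, 0 of 14 passed, 7 were near background, among them Ebf1, Cd79a and Ms4a1, and the sums were 701.9 to 769.7 and 630.5 to 733.8. NK and innate lymphoid markers gave 3 higher of 13: Gzmb and Gzma, which encode granule proteases, and the receptor gene Klrd1. Gzma averaged below background in both genotypes (3.68 and 4.61), so no fold is given for it. The controls of Gzmb and Klrd1 averaged below background too, and their changes were at least 1.82-fold and at least 1.43-fold. The summed intensity of all 13 markers was 467.1 to 906.9 in controls and 605.7 to 1226 in deleted HSCs. Nkg7, which did not pass, was the brightest of them (means 8.31 and 9.19). Of the 13 markers, 7 were near background in both genotypes, among them Ncr1, Eomes and Tbx21. The calls of Gzmb, Gzma and Klrd1 were lost under 4, 7 and 12 alternatives, in each case also with low values raised to the background.

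Plasmacytoid dendritic cell markers gave 1 higher of 12, Spib, with 1 marker near background and sums of 942.9 to 1255 and 1166 to 1391. Multipotent progenitor markers gave 1 higher of 10, Cd48, with a median of 0.41 and sums of 2577 to 5126 and 2759 to 4054. In 5 of these 10 all deleted arrays lay above all controls: Cd48, Cd244a, Slamf7, Mki67 and Cdk6. Over all genes this share was 3.51%. Of the 10 markers, 1 was near background in both genotypes, Slamf7 (means 3.64 and 4.18). Ctsg, Mpo, Cd33 and Cd34 had lower means in deleted HSCs, and Mpo alone ranged from 7.46 to 10.83 in controls. For HSC markers 0 of 17 passed, their median was -0.29, none was near background, and the sums were 8939 to 9858 and 5724 to 9647. Cebpa Δ/Δ array 3 was the lowest deleted array for most of these markers, among them Mecom (7.41), Slamf1 (6.92), Gata2 (9.02) and Kit (9.75). It was not the lowest for Procr or Tal1. The same array was the highest for Dntt, Il7r and Cd7, and a link between these readings was not tested. The lineage antigens of the gate gave 0 higher and 1 lower of 4, Ly6g, with sums of 766.1 to 878.5 and 733.2 to 828.5. The other genes in these sums were Cd3e, Itgam and the pan-leukocyte gene Ptprc. Ptprc was by far the brightest (means 9.28 and 9.25), so the sums mostly follow it and say little about lineage-positive cells. The part of any such cell type in the values of Dntt, Il7r, Cd7 and Flt3 was not tested.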

How the data were processed

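RNA of sorted HSCs, from 3 control (Cebpa fl/fl) and 4 deleted (Cebpa Δ/Δ) mice, was hybridised to Affymetrix Mouse Gene ST arrays after amplification. The authors summarised probe sets with the Robust Multichip Average in Partek Genomics Suite, and the notes of the submitters list RMA and affy with no version. The deposited intensities were on a linear scale (1.51 to 9840, array medians 46.2 to 50.4). RMA equalises the distribution of probe values between arrays before it summarises them, which hides any change in overall RNA content. The genome build of the probe sets is not given in the sources used here.

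All values were log2-transformed with no pseudocount. Of 35556 probe sets, 21789 had 1 gene symbol, 1621 several and 12146 none in the annotation used, and symbols of 21698 were updated through Entrez numbers. The brightest probe set was used for the 999 genes with several. This gave 19938 genes, and 0 columns were left unused. Genotypes were compared in limma 3.58.1 (R 4.3.3) with genotype as the only term and Benjamini-Hochberg adjustment at 0.05. The study names a p threshold and a fold threshold but no test for the arrays, so limma's unadjusted p was used. Before use, this fit was tested on simulated data with known changes. Precision is limited by the number of arrays.

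The 9 genes and all lists were chosen with earlier results of these data known. A gene whose mean in a genotype lay below the array background was called near background there, and a fold against it is a bound. Named besides the 9 genes were list members past the study's thresholds, otherwise those of smallest p up to 2 per list, the most abundant markers, Cebpa, and the 5 nearest profiles of Dntt, Il7r, Cd7 and Flt3. Listed genes without a probe set of their own, among them Tcf7, Lck and Il2rg, were not analysed here. Replicate numbers were not used to pair the samples in the main fit. Deviations of same-numbered arrays correlated at -0.02, 0.10 and -0.18, which shows no strong shared signal but cannot exclude a pairing of mice. The 17 alternatives changed the probe set summary, the scaling, the treatment of low values, the variance model, the pairing or the arrays used.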

Additional observations from a re-analysis of the deposited data

Results flagged for a closer look

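Among 72 genes checked, 8 had a Cebpa Δ/Δ array apart from the other 3, judged by its gap relative to the range of the group. For independent, normally distributed values chance gives about 1 in 20 groups. These genes share the same 4 arrays and some values are tied, so that rate is only a guide. None was among the 9 lymphoid priming genes. Hmgb2 (11.22) and the proliferation gene Mki67 (9.90) were high in Cebpa Δ/Δ array 1 on the log2 scale. Blk, a B cell kinase gene near background, read 4.91 there against a tied 4.87 in the other deleted arrays, a small gap. Array 3 was low for Fyn (6.51) and high for Klrd1 (6.39) and Ctss (8.77). Array 4 was low for Nkg7 (8.17) and Cpa3 (7.10), and it was also the lowest deleted array for Dntt and Il7r, neither of which stood apart by this measure.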

How the results depend on the processing

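The 9 genes kept their sign under every alternative except Rag2 and Notch1, which kept it in 12 of 16 and 12 of 17. Members higher numbered 3 to 5 when 1 array was left out. They numbered 3 without Cebpa fl/fl array 1 and 5 without Cebpa fl/fl array 2. In the same settings the genes higher among all genes numbered 223 and 404, against 314 in the main fit. Nothing is therefore read from the change in the number of members. The median of the 9 genes was 0.48 to 0.87 when 1 array was left out. With low values raised to the background, Dntt was 2.54, Il7r 0.37, Rag1 0.04 and Ccr9 0.06. With log2(value + 16), Dntt was 2.70, Il7r 1.02 and all genes lower numbered 75. Restricting to genes above the median level gave 5 genes past the adjusted threshold, and the median of the 9 genes was not computed there because dim members dropped out. Leaving out 1 array gave 0 to 3 genes past that threshold, with 3 without Cebpa fl/fl array 3. Without Cebpa fl/fl array 1 and Cebpa Δ/Δ array 3 together, genes higher numbered 169 and other lymphoid genes lower 0. Other lymphoid genes lower were 1 with the mean of all probe sets, 1 without variance moderation and 1 with the replicate block. They were 1 to 4 when 1 array was left out, with 4 without Cebpa fl/fl array 2. Without that array the genes lower among all genes numbered 157, against 123 in the main fit. Whether the replicate numbers stand for a pairing of mice is not known. With the replicate block, 292 genes were higher and 120 lower, 4 members were higher, and Dntt was 4.04 because array 4 has no partner and adds nothing to the blocked fit. Of 26 other named genes past the thresholds, 13 kept their call under every alternative that tested them, among them Id2, Cd53 and Cd48 under all 17, while the level filter left out Ly6g and Rian. Where no cause is given, it was not tested. Intensities near background limit what Il7r, Ccr9, Rag1 and Rag2 can show.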

Other observations

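Several marker genes did not pass the thresholds. Lag3, an inhibitory receptor gene of plasmacytoid dendritic and T cells, differed by 0.51 on the log2 scale (Cebpa Δ/Δ minus Cebpa fl/fl), and Cdk6, a kinase gene of cell cycle entry, by 0.46 (SE 0.15). Mki67 differed by 0.58 (SE 0.21), close to 1.5-fold, and Cd34, of the same multipotent progenitor list, by -0.25 (SE 0.21). The HSC genes Kit and Hlf differed by -0.34 (SE 0.15) and -0.51 (SE 0.23), and Mllt3 and Tal1 of that list by 0.12 (SE 0.21) and 0.11. The pan-leukocyte gene Ptprc was similar in both genotypes (9.28 and 9.25).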
